A study of Bos taurus with 33 samples.

Results

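The DEAD box (DDX) and DEAH box (DHX) RNA helicases were examined in bovine oocytes and in the cumulus cells (CC) that surround them. Members were all genes whose symbol begins with DDX or DHX and a digit, apart from DDX4, in either deposited table, joined by Ensembl identifier. The rule gave 50 of the 17543 genes listed, 34 with a DDX symbol and 16 with a DHX symbol. A library was made from 4 pooled oocytes, or from the pooled CC of 4 such complexes, of adult suckled beef cows. In the study the CC pools came from the same complexes as the oocyte pools, and that pairing was not used here. Every cow received gonadotropin releasing hormone (GnRH) on day -9 and prostaglandin F2 alpha on day -2. Cows that did not show estrus received a second GnRH injection on day 0 and formed the small class (largest follicle up to 11.7 mm, 6 oocyte and 6 CC pools) and the large class (from 12.7 mm, 6 and 6 pools). Cows of the spontaneous class (4 oocyte and 5 CC pools, follicle of 11.7 to 14 mm) showed estrus, received no second injection and had their own gonadotropin surge. Collection followed the injection or estrus by about 20 h in one field of the labels and about 23 h in another. No untreated cows were included, and follicle size and the origin of the surge cannot be told apart in a comparison of the small with the spontaneous class. The large and spontaneous classes also differed in mean follicle size in the study, as well as in estrus and the second injection.

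RNA helicases use ATP to remodel RNA and the proteins bound to it, and their names come from amino acids of a conserved motif of the helicase core. DEAD box enzymes open short duplexes locally, whereas DEAH box enzymes move along a strand and often need a partner with a G-patch domain. Together they act at nearly every step of RNA life, from transcription and splicing through ribosome assembly and export to translation, storage and decay. A fully grown oocyte is almost silent in transcription and lives on stored maternal mRNA, so helicases that hold mRNA in storage are well known in it, while CC remain transcriptionally active.

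Reads falling on genes numbered 7664375 to 17934916 per oocyte library and 1911600 to 5772431 per CC library. Values are CPM, the count of a gene per 1000000 of these reads. A gene without reads may therefore stand at up to 0.167 to 0.391 CPM (the worth of 3 reads) in oocytes, depending on the library, and at up to 0.520 to 1.57 CPM in CC, as far as counting error alone goes. Of 8 oocyte markers, 7 were listed in the oocyte table and summed to 6647 to 10570 CPM there, whereas the 4 listed in the CC table summed to 0 to 6.76 CPM. Of 10 cumulus and granulosa markers, 9 were listed in both tables and summed to 3123 to 8345 CPM in CC and 422 to 1013 CPM in oocytes. The oocyte sum includes HAS2 and STAR, whose median CPM was higher in oocytes (186 and 388) than in CC (50.5 and 5.64), and the other 7 had higher medians in CC, with oocyte medians at 0 to 21.2% of the CC medians. Markers of white blood cells summed to 119 to 260.0 CPM in oocytes and 12.0 to 89.9 CPM in CC. Those of theca cells summed to 21.5 to 149 CPM in oocytes and 128 to 1217 CPM in CC, and those of endothelium to 93.5 to 153 CPM and 7.39 to 68.9 CPM. The CC theca sum was mostly INSL3 (median 360.5 CPM), beside 0 for CYP17A1, 5.66 for LHCGR and 21.1 for NR2F2. In oocytes CSF1R (median 171.7 CPM) made up most of the white blood cell sum. The endothelial sum there was mostly TEK (82.4) and KDR (25.3), beside 9.91 for VWF and 0 for PECAM1. These sums rest on a few genes and do not by themselves show such cells. Of the 4 theca markers all were listed in both tables, and 7 of 8 white blood cell and 4 of 5 endothelial markers were listed in oocytes. Red blood cell markers summed to at most 0.568 CPM in oocytes and 4.19 CPM in CC. Small oocyte replicate 3 stood apart, with 5.0% mitochondrial reads (0.846 to 2.68% in the other oocyte pools) and the fewest reads on genes. It had the most genes with a read (13483). INHA, TNFAIP6 and INHBA stood there at 88.7, 57.1 and 114.4 CPM, above the medians of the other oocyte pools (30.8, 7.70 and 23.7) but within their range. Small CC replicate 3 had 44.0% mitochondrial reads (12.6 to 31.6% in the others) and also the fewest reads. In such bulk samples fewer cells of a type and less RNA per cell cannot be told apart.

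All 50 helicase genes were listed in oocytes and 48 in CC, DDX43 and DDX53 being listed in oocytes alone. A gene was retained where 4 or more oocyte pools, or 5 or more CC pools, reached 5 CPM. This held for 47 members in oocytes (94% of those listed, against 61.9% of all genes listed) and for 43 in CC (89.6% against 59.8%). The 43 retained in CC were all retained in oocytes, 4 more (DDX11, DDX25, DDX28 and DDX43) were retained in oocytes alone, and DDX51, DDX53 and DHX34 in neither. DDX51 reached at most 4.51 CPM in any pool, DHX34 7.70 CPM and DDX53 6.54 CPM. The summed CPM of the members ran from 4189 to 4816 over the 16 oocyte pools and from 2845 to 5509 over the 17 CC pools. As deposited, the family thus took a like share of all reads on genes in both. Mitochondrial reads, which lower these sums, had a median share of 20.2% in CC and 1.32% in oocytes. The sums were not taken without them, so a like share of the remaining reads is not shown. The lowest CC sum belonged to small replicate 3, and without it the CC pools began at 3895 CPM.

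The balance among the helicases differed between the cell types, as seen in the plot of every member in every pool. Among the 43 members retained in both tables, 10 were higher in every oocyte pool than in any CC pool, where 22.5% of the 8083 genes retained in both had that order. Another 6 were higher in every CC pool than in any oocyte pool, against 12.7% of all such genes, and 27 overlapped. Neither count stands out from its background, and without small oocyte replicate 3, or without small CC replicate 3, the counts were again 10 and 6. The tables were scaled separately, so that no test was run across them and these orders are a description. CC libraries carried far more mitochondrial reads (12.6 to 44.0% against 0.846 to 5.0%), which lowers the CPM of every other gene in them. When pools were instead scaled by the median of ratios, or without mitochondrially encoded genes, 5 members were higher in every oocyte pool and 7 in every CC pool of 44 retained (11.4% and 15.9%), beside 18.5% and 17.9% of all genes with the median of ratios and 18.7% and 17.5% without mitochondrial genes. The median log2 ratio of all genes moved from 0.25 to -0.07 and -0.03 under these scalings.

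**Figure D1:**
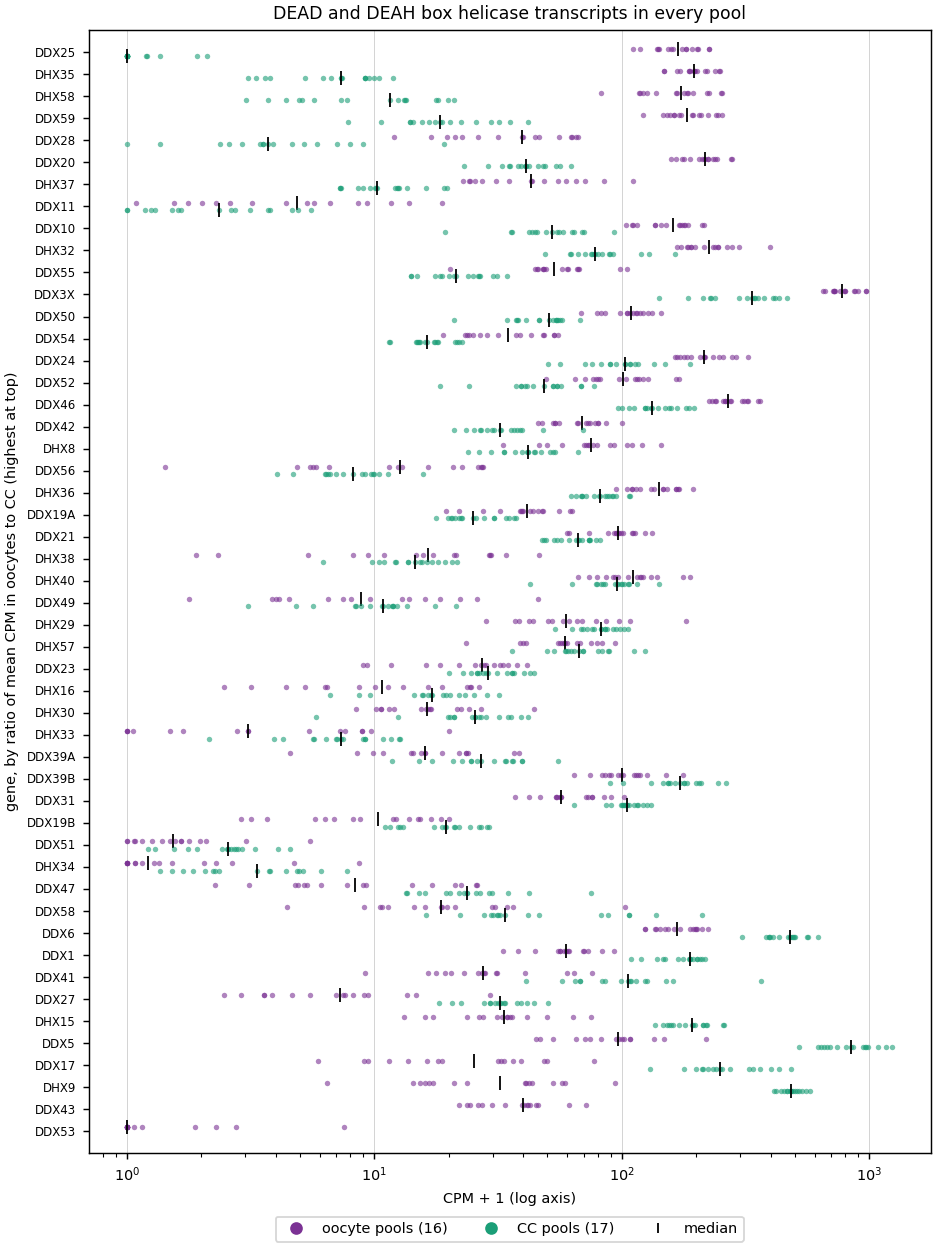
CPM + 1 on a log axis (horizontal) of each helicase in the 16 oocyte pools (purple) and 17 CC pools (green), 1 point per pool with a black tick at the median, ordered from the highest to the lowest ratio of mean CPM in oocytes to CC. DDX25 at the top lies between 109 and 224 CPM in oocytes and at most at 1.10 CPM in CC, whereas DHX9, the lowest gene listed in both tables, lies at 5.45 to 93.2 CPM in oocytes and 412 to 575 CPM in CC. DDX43 and DDX53 have no CC points.

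Of the 4 helicases of transcription and small RNA processing, 3 were higher in every CC pool and 1 in every oocyte pool. Of all genes retained in both tables, 12.7% and 22.5% had these orders, and the group is small. DHX9 (ENSBTAG00000019821), also called RNA helicase A, links transcription factors to RNA polymerase II and resolves structured RNA. Its lowest, median and highest values were 412, 480.4 and 575 CPM in CC and 5.45, 31.1 and 93.2 CPM in oocytes. The groups did not overlap, the CC mean (485 ± 44.1 CPM, SD, n = 17) was 14.2-fold the oocyte mean (34.0 ± 23.1, n = 16), and the oocyte maximum came from small replicate 3. Without that pool the highest oocyte value was 57.8 CPM. DDX5 (ENSBTAG00000018423) and DDX17 (ENSBTAG00000009887) are close relatives that act as coregulators of transcription and as cofactors of the microprocessor, which cuts primary microRNAs. DDX5 stood at 521, 843 and 1236 CPM in CC (lowest, median and highest) and at 43.8, 95.1 and 218 CPM in oocytes. DDX17 stood at 129, 249 and 480.1 CPM in CC and at 4.90, 24.2 and 75.9 CPM in oocytes. CC means were 8.83-fold and 10.2-fold the oocyte means for DDX5 and DDX17, with no overlap, and all 3 genes had the same order under both other scalings. DHX9, DDX17 and DDX5 stood in oocytes at 6.48%, 9.71% and 11.3% of their CC medians. The 7 cumulus markers with a higher median in CC lay at 0 to 21.2%. The 21.2% was CYP19A1, with a CC median of 5.83 CPM, and AMH (7.89%) and INHBA (5.57%) came next. HAS2 and STAR had higher medians in oocytes. The part of attached CC in the oocyte values was not tested.

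DDX20 (ENSBTAG00000018717), or Gemin3, was the member of this group with the opposite order. It belongs to the SMN complex, which loads Sm proteins onto spliceosomal small nuclear RNAs. It stood at 156, 215 and 277 CPM in oocytes and at 21.97, 39.8 and 61.0 CPM in CC. Every oocyte pool was higher under each of the 3 scalings, and the ratio of means was 5.21.

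Among the splicing helicases the extremes lay on opposite sides while most overlapped. Of 10 retained in both, 2 were higher in every oocyte pool, 1 in every CC pool and 7 overlapped, beside 22.5% and 12.7% of all genes for the first 2 orders. The median log2 ratio was 0.02 (0.25 for all genes) and became -0.35 under median-of-ratios scaling. DHX35 (ENSBTAG00000004039), found in the catalytic spliceosome, stood at 147, 194 and 248 CPM in oocytes and at 2.09, 6.35 and 10.9 CPM in CC, a 31.4-fold ratio of means. DHX15 (ENSBTAG00000008896), which takes spent spliceosomes apart and also serves ribosome assembly, stood at 135, 190.3 and 258 CPM in CC and at 12.2, 32.5 and 74.3 CPM in oocytes, a ratio of CC to oocytes of 5.57. Neither gene overlapped between the cell types under any of the 3 scalings. DDX46, which acts early in assembly of the spliceosome, did not overlap as deposited (224 to 361 CPM in oocytes, 95.2 to 195 in CC) but did under both other scalings. DDX41 (8.16 to 74.6 CPM in oocytes, 40.05 to 364 in CC), DDX39B (62.8 to 176 and 88.4 to 261), DDX23, DDX42, DHX8, DHX16 and DHX38, which serve successive steps of the splicing cycle, overlapped. The highest DDX41 value in CC came from large replicate 2, where the next pool of the class stood at 113 CPM.

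Helicases of mRNA storage, translation and decay were split as well. DDX3X (ENSBTAG00000035907), which helps ribosomes start on mRNAs with structured leaders, stood at 647, 774 and 967 CPM in oocytes and at 141, 335 and 464 CPM in CC. Every oocyte pool was higher under each scaling, and the ratio of means was 2.52. DDX6 (ENSBTAG00000009067), which represses translation and gathers mRNA in cytoplasmic granules, stood at 303, 476 and 617 CPM in CC and at 122, 166 and 223 CPM in oocytes, with a CC mean 2.73-fold the oocyte mean. DDX1 (ENSBTAG00000009906), a helicase of the tRNA ligase complex and of RNA transport granules, stood at 108, 187 and 216 CPM in CC and at 32.0, 58.4 and 91.7 CPM in oocytes. DDX6 and DDX1 kept their order under each scaling. DHX36, which unwinds G-quadruplexes, stood at 93.6 to 193 CPM in oocytes and 61.2 to 107 CPM in CC, and DHX29, which assists scanning by the ribosome, at 27.3 to 181 and 52.8 to 105 CPM. Both overlapped.

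In the group for mRNA export, DDX25 (ENSBTAG00000004266) had the highest ratio of any member listed in both tables. It is a gonadotropin-regulated helicase best known from male germ cells, where it carries mRNAs to the cytoplasm and to storage granules. It stood at 109, 167 and 224 CPM in the oocyte pools. In CC it received 12 reads in all, 12 of the 17 pools were at 0, and the highest value was 1.10 CPM. DDX19A and DDX19B, which release mRNA at the cytoplasmic face of the nuclear pore, stood at 18.4 to 61.6 and 1.88 to 19.1 CPM in oocytes, and at 16.7 to 36.3 and 10.02 to 28.1 CPM in CC. DDX39A stood at 3.56 to 37.3 CPM in oocytes and 10.8 to 54.1 CPM in CC, so that each of these 3 overlapped.

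The 14 ribosome assembly helicases retained in both had a median log2 ratio of 0.99, against 0.25 for all genes, and 0.61 under median-of-ratios scaling. Of these 14, 3 were higher in every oocyte pool (22.5% of all genes were), 0 in every CC pool (12.7% of all genes) and 11 overlapped. DHX37, needed for the small subunit, stood at 21.7, 42.1 and 109.6 CPM in oocytes and 6.25, 9.26 and 18.7 CPM in CC. DDX10, which acts in small subunit assembly, stood at 103, 159 and 213 CPM in oocytes and 18.3, 51.1 and 91.8 CPM in CC. DDX50, a nucleolar relative of DDX21, stood at 67.6 to 143 CPM in oocytes and 19.9 to 66.6 CPM in CC. All 3 overlapped under both other scalings, and DDX31 (35.9 to 101 CPM in oocytes, 62.8 to 131 in CC) became higher in every CC pool there. DDX27 had the lowest ratio of the group, at 1.46 to 28.4 CPM in oocytes and 17.2 to 49.1 CPM in CC, with overlap.

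The pair of helicases that sense viral RNA ran in opposite directions. DHX58 (ENSBTAG00000046580), or LGP2, binds double-stranded RNA and tunes the signal of related sensors. It stood at 81.2, 171 and 254 CPM in oocytes and at 2.04, 10.6 and 19.9 CPM in CC, a 17.4-fold ratio of means without overlap under any scaling. DDX58 (ENSBTAG00000003366), or RIG-I, senses RNA with a 5′ triphosphate and starts interferon signalling. It stood at 3.42, 17.7 and 102 CPM in oocytes and at 15.2, 32.7 and 210 CPM in CC, with overlap. Among less well characterised members, DDX59 stood at 120.3, 182 and 254 CPM in oocytes and 6.80, 17.3 and 40.7 CPM in CC, without overlap under any scaling. DHX32 stood at 166, 223 and 395 CPM in oocytes and 48.0, 76.9 and 162 CPM in CC, and overlapped under the other scalings. DHX40 and DHX57 overlapped throughout.

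Of the members retained in oocytes alone, DDX43, a helicase of germ cells and tumours, stood at 21.0, 38.8 and 70.8 CPM there. DDX28, a mitochondrial helicase needed for the mitochondrial ribosome, stood at 11.0, 38.6 and 65.2 CPM in oocytes and at 0, 2.73 and 18.1 CPM in CC. DDX11, a DNA helicase of sister chromatid cohesion, stood at 0.0861 to 17.8 CPM in oocytes and 0 to 4.54 CPM in CC. DHX30, the other mitochondrial member, overlapped at 7.39 to 43.3 and 4.83 to 40.7 CPM.

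**Figure D2:**
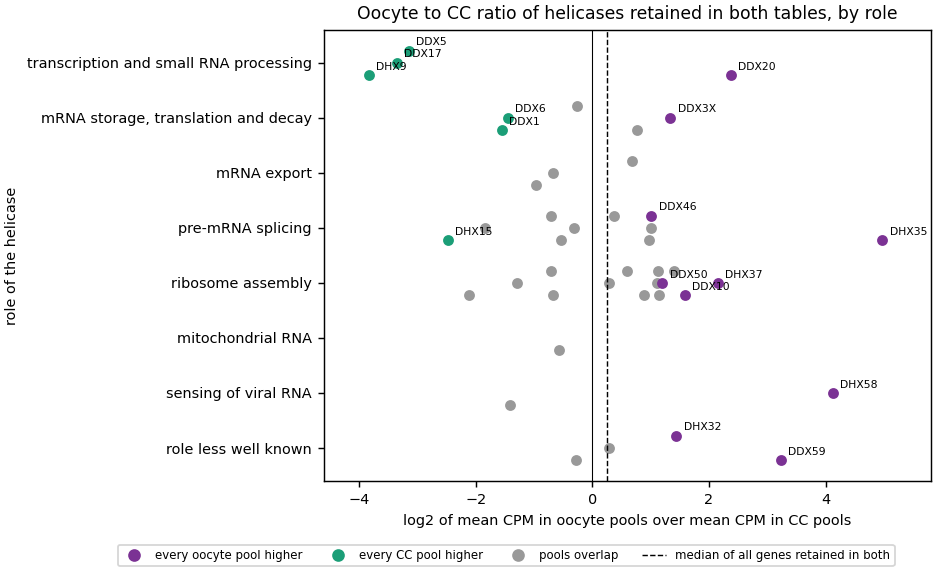
The log2 ratio of mean CPM in the 16 oocyte pools to that in the 17 CC pools (horizontal) for the 43 helicases retained in both tables, in rows by role, with purple points where every oocyte pool was higher, green points where every CC pool was higher, grey points where pools overlapped, and a dashed line at the median of all genes (0.25). The transcription and small RNA group holds DHX9, DDX17 and DDX5 at the far left and DDX20 at the right, and the ribosome assembly group holds no green point. Of the purple genes, DDX46, DDX50, DDX10, DHX37 and DHX32 overlapped under the other scalings.

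Shares within pairs of relatives do not depend on the scaling of a library. Of the reads of DDX58 and DHX58 together, DDX58 took 1.35 to 46.9% in oocyte pools (median 10.1%) and 62.2 to 94.5% in CC pools (median 86.2%), without overlap. DDX5 took a median of 84.3% of the reads of DDX5 and DDX17 in oocytes and 76.6% in CC, and the oocyte pools spread from 37.6 to 90.6%. DDX39A took 13.1% of the reads of DDX39A and DDX39B in oocytes and 13.7% in CC (medians). For DDX19A with DDX19B the medians were 83.0 and 58.3%, and for DDX21 with DDX50, neighbouring genes that encode nucleolar proteins, 47.4 and 57.2%, with overlap for each. How reads that match both of a pair were counted is not given in the sources used here, so shares of close relatives are uncertain.

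**Figure D3:**
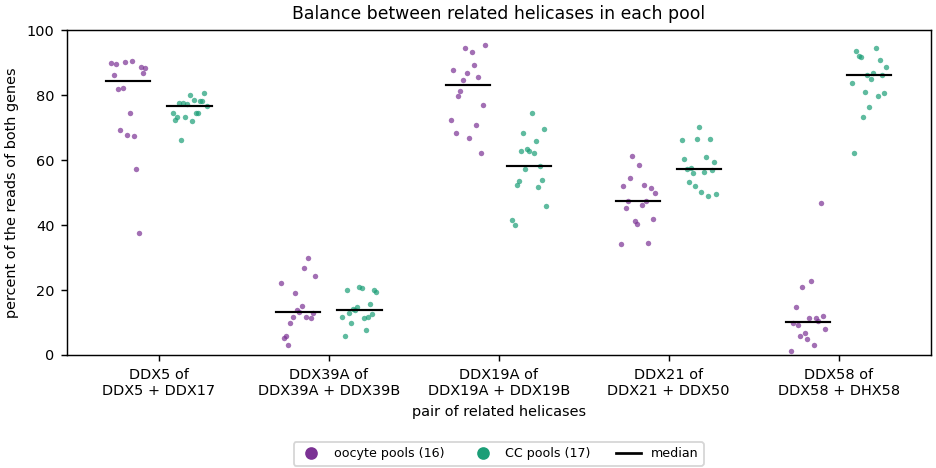
The percent of the reads of a pair of related helicases that fell on the first of them (vertical), in each oocyte pool (purple) and CC pool (green), with a black line at the median. Only for DDX58 with DHX58 do the cell types separate, at 1.35 to 46.9% against 62.2 to 94.5%. The other 4 pairs overlap.

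Partners and other RNA helicases, taken from lists of their pathways, were compared in the same way. Of all genes 22.5% were higher in every oocyte pool and 12.7% in every CC pool, with a median log2 ratio of 0.25. Of 16 other RNA helicases retained in both tables, 6 were higher in every oocyte pool, 1 in every CC pool and 9 overlapped (median log2 ratio 0.06). SUPV3L1, the helicase of mitochondrial RNA decay, stood at 70.9 to 239 CPM in oocytes and 9.94 to 21.3 CPM in CC, and UPF1, the helicase of nonsense-mediated decay, at 41.1 to 94.4 and 6.55 to 23.0 CPM. SNRNP200, which unwinds small nuclear RNAs in the spliceosome, stood at 190.4 to 361 CPM in CC and 27.1 to 89.6 CPM in oocytes, and MOV10 had the next lowest ratio with overlap. Of 19 G-patch and other partners of DHX helicases, 5 were higher in every oocyte pool, 1 in every CC pool and 13 overlapped (median 0.60). PINX1, a nucleolar partner of DHX15, stood at 74.98 to 190.0 CPM in oocytes and 2.45 to 15.0 CPM in CC, and CHERP had an 8.66-fold ratio. RBM10, a splicing regulator, stood at 110.4 to 249.7 CPM in CC and 21.7 to 55.6 CPM in oocytes, and SUGP1, another splicing partner of DHX15, had a 4.76-fold higher CC mean with overlap.

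Of the 6 partners of DDX6, EIF4ENIF1, which ties DDX6 to the cap-binding protein eIF4E, was higher in every oocyte pool (339 to 585 CPM against 14.8 to 43.7 in CC, a 16.6-fold ratio of means), and the other 5 overlapped. DDX6 itself had the opposite order. Of 16 entries of export and exon junction partners, 6 were higher in every oocyte pool, 0 in every CC pool and 10 overlapped (median 1.34). The shares of all genes were again 22.5% and 12.7%, with a median of 0.25. THOC7 is counted under separate entries. The higher (means 86.7 CPM in oocytes and 38.3 CPM in CC) did not overlap as deposited but did under the other scalings. The lower (17.7 and 9.01 CPM) overlapped throughout. NUPL2 and GLE1, which work with the DDX19 helicases at the nuclear pore, had ratios of 5.90 and 5.53, and RBM8A and ALYREF had the lowest ratios. GLE1 overlapped under the other scalings, where RBM8A became higher in every CC pool. Of 9 SMN complex and microprocessor partners, 3 were higher in every oocyte pool and 6 overlapped (median 1.51). DROSHA, the nuclease that DDX5 and DDX17 assist, stood at 228 to 438 CPM in oocytes and 15.7 to 34.6 CPM in CC, and GEMIN5, a partner of DDX20, had a ratio of 4.4. Over the 5 lists, 16 of the 21 genes higher in every oocyte pool and both of those higher in every CC pool had the same order under each scaling.

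The question behind the follicle classes was whether follicle size and a spontaneous or induced surge go with transcript differences. For the helicases, no member passed the threshold (nominal p of 0.01 or less by limma on log2(CPM + 1)) in any of the 6 comparisons. The study asked for this p from both edgeR and DESeq2, and when both were run on the recovered reads DDX17 passed between large and spontaneous CC (1 of 43 members, where 1.24% of all genes did). By this rule 0 members passed in the other 5 comparisons, where 0.486%, 0.516% and 0.834% of all genes did in oocytes (small and large, small and spontaneous, large and spontaneous) and 0.638% and 1.26% in CC (small and large, small and spontaneous). By limma 0 of 47 members were called in oocytes between small and large follicles, 0 between small and spontaneous and 0 between large and spontaneous, where 0.655%, 0.774% and 0.943% of all 10076 genes tested were called. In CC 0 of 43 were called in each comparison, where 0.813% (small and large), 2.38% (small and spontaneous) and 1.66% (large and spontaneous) of 9712 genes were called. At an unadjusted p under 0.05 by limma, 1 member passed in each comparison except small and large CC, where 0 did, and the background was 4.11, 4.51 and 4.87% in oocytes and 4.0, 8.55 and 7.07% in CC. At these shares few or no members would be called in a list of this length. By edgeR and DESeq2 on the recovered reads 0 to 1 members reached the nominal threshold in a comparison, and 1 to 2 an unadjusted p under 0.05. P-values here measure the spread between pools of different cows.

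Most differences were small relative to their errors. In oocytes 39, 36 and 39 of 47 members had an absolute log2 fold change under 0.5 (small and large, small and spontaneous, large and spontaneous), with median standard errors of 0.31, 0.37 and 0.32. In CC 42, 41 and 41 of 43 members lay under 0.5, with median standard errors of 0.27, 0.25 and 0.24. Median log2 fold changes of the members, as the second class over the first, were -0.02, 0.03 and 0.02 in oocytes and 0.00, 0.10 and 0.11 in CC, beside 0.05, 0.05, 0.01, 0.05, 0.16 and 0.11 for all genes tested. Under median-of-ratios scaling the CC medians were -0.05, -0.06 and 0.02.

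**Figure D4:**
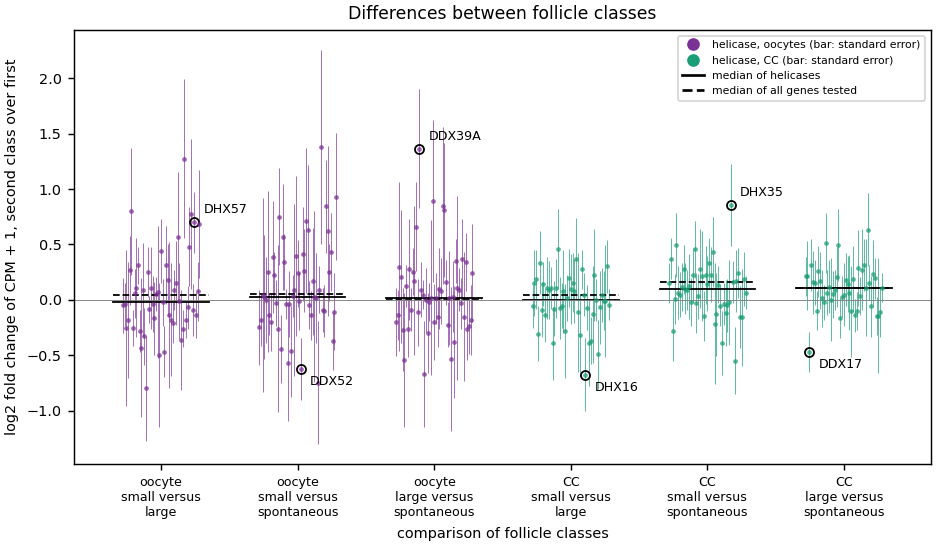
The log2 fold change of CPM + 1 between follicle classes (vertical, the second class named over the first) for each of 47 helicases in oocytes (purple) and 43 in CC (green), with bars for the standard error, a solid line at the members' median and a dashed line at the median of all genes tested. The circled gene has the smallest p in its comparison. Most points lie between -0.5 and 0.5, and none passed the threshold.

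In oocytes the smallest p between small and large follicles belonged to DHX57 (ENSBTAG00000014679), a helicase of little known role. Its values were 22.5 to 59.0 CPM in small pools (median 47.1) and 55.2 to 92.4 CPM in large pools (median 70.3), and the groups overlapped narrowly. The log2 fold change was 0.70 ± 0.28 (SE, 95% interval 0.13 to 1.26), with limma p = 0.0172, adjusted p = 0.997 and an exact permutation p of 0.0130 for the difference in mean CPM. DDX52, a helicase of small subunit assembly, followed at 75.2 to 169 CPM in small pools and 63.6 to 116 CPM in large pools (log2 fold change -0.47, limma p = 0.0503, exact permutation p = 0.0693). DDX52 also had the smallest p between small and spontaneous follicles, with spontaneous values of 78.7, 48.4, 80.6 and 120.7 CPM and a log2 fold change of -0.62 ± 0.28 (limma p = 0.0358, adjusted p = 0.987, exact permutation p = 0.0952). The ribosome assembly helicase DHX37 came next there, at a mean of 35.1 CPM in small and 63.9 CPM in spontaneous pools (limma p = 0.0534, exact permutation p = 0.143).

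DDX39A (ENSBTAG00000021820), the export relative of DDX39B, had the smallest p between large and spontaneous oocytes. Its values were 3.56 to 20.9 CPM in large pools (median 9.35) and 37.3, 15.0, 22.5 and 35.7 CPM in spontaneous pools, so that large replicate 1 overlapped with the lowest spontaneous pool. The log2 fold change was 1.36 ± 0.54 (95% interval 0.26 to 2.47, limma p = 0.0170, adjusted p = 0.968) and the exact permutation p was 0.0190. It reached the nominal threshold without large replicate 1 (log2 fold change 1.58) or without spontaneous replicate 2 (1.62). DHX32 was the next, at means of 199 and 262 CPM (limma p = 0.0848, exact permutation p = 0.152).

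In CC, DHX16, which drives activation of the spliceosome, had the smallest p between small and large follicles, at 14.6 to 30.8 CPM in small pools and 5.64 to 19.2 CPM in large pools (log2 fold change -0.68 ± 0.33, limma p = 0.0536, adjusted p = 0.999, exact permutation p = 0.0693). DHX32 followed at means of 92.6 and 71.1 CPM (limma p = 0.0981, exact permutation p = 0.113). DHX35, the splicing helicase with low CC values, led between small and spontaneous follicles. Its spontaneous values were 10.9, 8.97, 6.35, 8.17 and 9.48 CPM and its small values 2.09 to 8.50 CPM (median 3.99), with overlap. The log2 fold change was 0.86 ± 0.37 (95% interval 0.08 to 1.64, limma p = 0.0331, adjusted p = 0.544, exact permutation p = 0.0303). The same spontaneous pools set against large pools (2.32 to 8.15 CPM) gave a log2 fold change of 0.63 (limma p = 0.0701, exact permutation p = 0.0173). DDX10 had means of 43.9 CPM in small and 57.3 CPM in spontaneous pools (limma p = 0.0587, exact permutation p = 0.0216).

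The helicase nearest to a call across settings was DDX17 between large and spontaneous CC. Its values were 239 to 430 CPM in large pools (median 294) and 211, 177, 272, 232 and 211 CPM in spontaneous pools, so that the highest spontaneous pool lay within the range of the large pools. The log2 fold change was -0.47 ± 0.18 (95% interval -0.85 to -0.10, limma p = 0.0170, adjusted p = 0.621) and the exact permutation p was 0.0303. Over 19 alternatives the log2 fold change ran from -0.59 to -0.37, and 5 of them passed the nominal threshold. These were median-of-ratios scaling (log2 fold change -0.57), CPM without mitochondrial genes (-0.53), edgeR and DESeq2 on the recovered reads (-0.59 each), and leaving out large replicate 3 (-0.54), with adjusted p-values of 0.718, 0.685, 0.762, 0.256 and 0.566. The other 14 did not pass, among them the joint fit of the 3 classes (-0.47 ± 0.26, adjusted p = 0.880) and the fit without spontaneous replicate 2 (-0.40 ± 0.19, adjusted p = 0.827). The small CC pools spread from 129 to 480.1 CPM and covered both other classes.

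**Figure D5:**
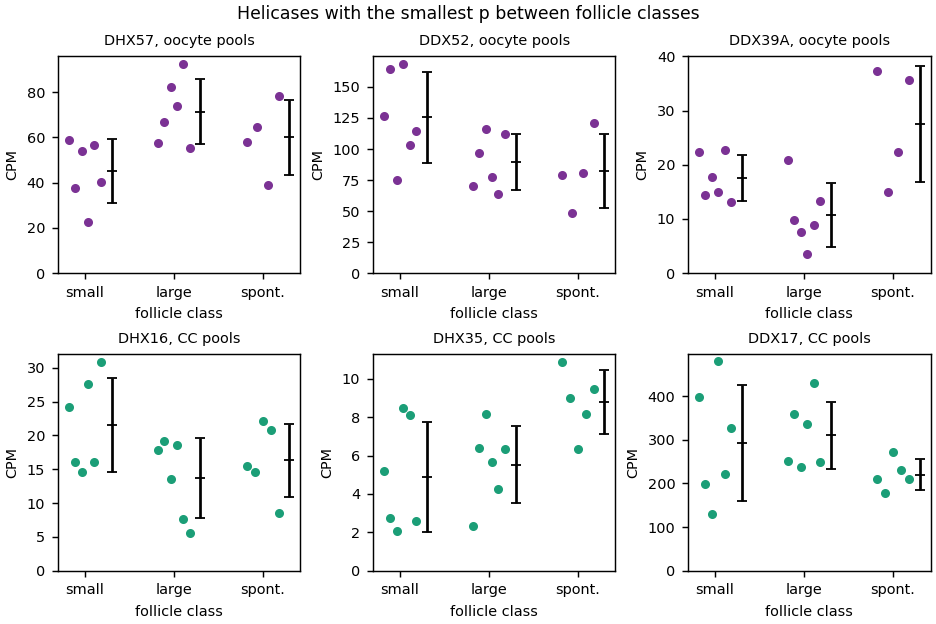
CPM in each pool (vertical, from 0) by follicle class for the helicase with the smallest p in each comparison, 3 in oocytes (purple) and 3 in CC (green), with the mean and SD in black beside the points. DDX17 in CC lies at 177 to 272 CPM in spontaneous pools and 239 to 430 CPM in large pools. In each panel the compared classes overlap.

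Among the partner lists 3 genes were called in oocytes, and 0 of 69 genes tested in each CC comparison, where 0.813 to 2.38% of all genes were called. Of 71 genes tested in oocytes, 1 was called between small and large follicles, 0 between small and spontaneous and 2 between large and spontaneous. Of all genes 0.655%, 0.774% and 0.943% were called there. THOC7 counts under separate entries in the oocyte and CC totals. EDC3, a decapping partner of DDX6, rose from small to large follicles (log2 fold change 2.19 ± 0.60, limma adjusted p = 0.997). From large to spontaneous follicles GPANK1, a protein with a G-patch, fell (log2 fold change -1.60 ± 0.55) and GEMIN5 rose (0.60 ± 0.21), both with a limma adjusted p = 0.968. Over all oocyte pools EDC3 ran from 0 to 36.8 CPM (median 9.20), GPANK1 from 1.12 to 39.1 CPM and GEMIN5 from 109 to 325 CPM.

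The spread between pools varied widely among the helicases. Over the 16 oocyte pools the coefficient of variation of the 47 retained members had a median of 35.9%, from 12.7% for DDX3X to 120% for DHX33, beside 45.9% for all genes retained. Over the 17 CC pools it had a median of 30.1%, from 9.09% for DHX9 to 84.4% for DDX58, beside 33.9%. The members' median level was above that of all genes in both tables (58.6 against 33.6 CPM in oocytes, 46.2 against 27.0 CPM in CC). DHX9 had the steadiest CPM of the members in CC while its oocyte values ran from 5.45 to 93.2 CPM.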

How the data were processed

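RNA from pools of oocytes or CC was reverse transcribed, amplified and sequenced as single-end reads by the authors, who trimmed reads with fqtrim, aligned them to UMD3.1 with Hisat2 and counted them with featureCounts on the Ensembl annotation. CPM per gene and pool is the deposited unit, in 1 table per cell type. The library kit does not mark strand, so overlapping genes on opposite strands cannot be told apart, and amplified cDNA reads are not independent molecules. Columns were matched to pools by name, with 0 left over. Of the 50 members, 2 were joined by identifier where symbols differed (DDX19A and DDX21), and 2 were listed in the oocyte table alone (DDX43 and DDX53). No transcript lengths, genome of that build or protein sequences were used here, so CPM was not corrected for length and no sequence or coordinate is printed. Shares within pairs, the ranking by mean CPM and the median levels set beside all genes are therefore also uncorrected for length. RefSeq gene names (assembly ARS-UCD2.0) were used only for symbols, found for 49 members, and neighbours.

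Whole reads were recovered from the CPM for 100% of values (within 0.01 of a whole number). Genes that reached 5 CPM in 4 or more oocyte pools, or in 5 or more CC pools, were tested with limma's trend method on log2(CPM + 1), between 2 classes and two-sided, with Benjamini-Hochberg adjustment over all genes of the table. A call was a nominal p of 0.01 or less by limma, whereas the study asked for it from both edgeR and DESeq2, and with small oocytes it also had to hold without small replicate 3. Fold changes on this scale understate those of low genes. An exact two-sided permutation test of mean CPM was run for the 2 members with the smallest limma p in each comparison. These were picked on the same pools, so the permutation p-values are not separate support. Alternatives were a pseudocount of 0.1, no filter, median-of-ratios scaling, CPM without 13 mitochondrial genes, a joint fit of the 3 classes, a replicate block, DESeq2, the quasi-likelihood test of edgeR, no requirement on small replicate 3, and each pool left out. Calls made by edgeR and DESeq2 together, in the same direction, were added after seeing the data. The tests were tried on simulated counts, without the requirement on small replicate 3. At the nominal threshold limma recovered 66 to 72% of 4-fold changes in oocytes and 91 to 92% in CC. Smaller changes were not tried. Named members were those with the 2 smallest p-values in each comparison, the 5 with the highest mean CPM in each cell type, the 6 highest and 6 lowest ratios, and a fixed list. Members and lists were chosen with earlier results of these data known. R 4.3.3, limma 3.58.1, edgeR 4.0.16, DESeq2 1.42.0, Python 3.11.15, pandas 2.3.3 and matplotlib 3.10.9 were used.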

Additional observations from a re-analysis of the deposited data

Results flagged for a closer look

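Among 26 named helicases, 156 groups of 4 to 6 pools were searched for a pool far from the others (a gap to its neighbour over the range of the group, above Dixon's 95% critical value). Of these 13 were found, where chance gives about 5% or 7.8.

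DDX41 had 4 of them: 74.6 CPM in small oocyte replicate 1 (next 30.3), 63.2 CPM in spontaneous oocyte replicate 3 (next 16.7), 160.4 CPM in small CC replicate 1 (next 84.7) and 364 CPM in large CC replicate 2 (next 113). Spontaneous CC replicate 4 was flagged for 3 helicases, with DDX46 at 195 CPM (next 138), DDX59 at 34.3 CPM (next 17.8) and DHX32 at 162 CPM (next 88.8). That pool was also the highest of its class for others that were not flagged, such as DHX9 and DHX15, but not for DDX5 or DDX3X. In oocytes DHX9 stood at 93.2 CPM in small replicate 3 (next 22.7), DHX15 at 74.3 CPM in small replicate 1 (next 30.4) and DDX17 at 75.9 CPM in spontaneous replicate 1 (next 17.7). In CC DDX28 stood at 18.1 CPM in small replicate 1 (next 6.07), and DDX25 at 0.911 CPM (3 reads) in small replicate 4 and 0.195 CPM (1 read) in large replicate 4. Every other pool of those classes was at 0 for DDX25, so that any read stands far from the others by this measure, and neither value exceeds the worth of 3 reads.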

How the results depend on the processing

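For the 2 helicases with the smallest limma p in each comparison of classes, 232 alternative log2 fold changes were fitted. Of these 225 kept their direction and their side of the threshold and 7 passed it in the same direction. Since these helicases were picked for a small p, a kept direction says little about stability. The median over the members changed sign in 27 of 116 alternative fits, for example between small and spontaneous CC from 0.10 to -0.06 under median-of-ratios scaling and -0.07 without mitochondrial genes. Counts of helicases higher in every oocyte pool moved from 10 to 5 under median-of-ratios scaling and to 5 without mitochondrial genes, and ranged from 10 to 11 with each pool left out (6 to 7 for those higher in every CC pool). Called helicases went from 0 to 1 between large and spontaneous CC under median-of-ratios scaling, without mitochondrial genes, by edgeR, by DESeq2 and by both together, the gene being DDX17 each time, and between small and spontaneous CC by DESeq2 (DHX37, log2 fold change -0.80). With each pool left out the count ranged from 0 to 1 between large and spontaneous oocytes (DDX39A without large replicate 1 or spontaneous replicate 2), small and spontaneous CC (DDX41 without small replicate 1, log2 fold change 0.66) and large and spontaneous CC (DDX17 without large replicate 3, -0.54), and was 0 to 0 in the other 3 comparisons. The causes were not tested. Depth limits DDX25 in CC, where 3 reads are worth up to 1.57 CPM.

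Pools of different classes share only a replicate number. The deviations of same-numbered pools had correlations of -0.19 to 0.22, and with the replicate number as a block 0 helicases were called in each of the 6 comparisons.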
